A study of Mus musculus with 16 samples.

Results

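The transcripts of the cytosolic ribosomal proteins were followed by metabolic labelling in mouse leukemia cells. Members were chosen by symbol: names of the forms Rpl, Rplp, Rps or Rpsa followed where needed by a number and the letters a, l, x, al or l1. For each gene the interval with the highest mean CPM (reads scaled to library size, the authors' mean over the libraries) was used, and a gene was kept where that mean was at least 1. Of 21177 genes in the deposited table, 83 had a matching name and 53 were kept, 34 of the large and 19 of the small subunit. The other 30 fell below the minimum, 18 of the large and 12 of the small subunit. Testing required a rate above 0 in 12 or more of the 16 libraries, and 50 of the 53 met this, 32 large and 18 small. The 3 kept genes that did not were Rpl3l, Rpl39l and Rps12.

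The cells were leukemia cells from bone marrow of C57BL/6 mice of 2 genotypes, WT and YBX1-/-, and the series title places the question in the control of mRNA stability by YBX1, an RNA-binding protein. All cells received 50 µM 4-thiouridine (4sU) for 24 h, were washed, and were then chased in medium with 10 mM uridine, so that every group, the 0 h samples included, had been labelled. In SLAM-seq, RNA made in the presence of 4sU is recognised by T-to-C changes in the reads, and the T-to-C rate is given here in percent. There was 1 library for each genotype at 0, 0.5, 1, 3, 6, 12, 18 and 24 h, with no replicate at any time point, so a p-value here reflects how much time points scatter and not how animals or cultures vary.

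Ribosomal proteins assemble with ribosomal RNA into the large and small subunits of the cytosolic ribosome, and most are needed in equal numbers. Their mRNAs carry a 5' terminal oligopyrimidine (TOP) motif, a run of C and T bases at the very start of the transcript through which nutrient and growth signals set their translation together. They are known as abundant and long-lived mRNAs with short untranslated regions, and many have processed pseudogenes elsewhere in the genome.

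The run of pyrimidines could be read from the sequences around the annotated starts. RefSeq (build GRCm38.p6) gave such a sequence for 42 of the 53 kept members and for 5929 of 7398 tested genes with a symbol. A run of at least 10 bases that were each C or T on the sense strand, within 50 bases of the annotated start, was found in 29 of the 42 members (69.0%) and in 19.7% of the tested genes. The same run on the antisense strand, that is of A or G, was found in 9.52% of the members and 20.1% of the tested genes. The longest sense run had a median of 10 bases in the members and 6 in the tested genes. Windows of 30 bases are shown for the 6 members with the longest runs among the canonical forms with a mean CPM of at least 10 (Rpl39, whose run of 14 bases ties with the last 4 of these, has the lower CPM and is not shown), for Rpl41 and Rplp0, and for the 4 paralog forms that were tested. Capitals mark the longest run of C and T.
Rpl27a (chr7:109519186-109519215, plus strand): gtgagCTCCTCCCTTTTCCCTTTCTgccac
Rpl4 (chr9:64173405-64173434, plus strand): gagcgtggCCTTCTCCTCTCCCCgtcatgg
Rpl14 (chr9:120571501-120571530, plus strand): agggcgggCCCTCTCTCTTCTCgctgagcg
Rpl26 (chr11:68901516-68901545, plus strand): TCCTCTCCCCTTTCgctccgagactctcgc
Rpl13a (chr7:45128722-45128751, minus strand): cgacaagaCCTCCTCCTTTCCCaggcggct
Rpl22 (chr4:152325679-152325708, plus strand): ccgtctgaCTCCTCCCTTTCCCgacagccg
Rpl41 (chr10:128549119-128549148, minus strand): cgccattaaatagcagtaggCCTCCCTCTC
Rplp0 (chr5:115559466-115559495, plus strand): aggaccgcctggTTCTCCTataaaaggcac
Rpl22l1 (chr3:28805499-28805528, plus strand): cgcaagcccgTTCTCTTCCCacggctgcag
Rpl36al (chr12:69184020-69184049, minus strand): gctctgttcgTCCCTTTCCTgttcggcgcg
Rpl7l1 (chr17:46782671-46782700, minus strand): cgtcgaggcgggCCTCTCTaccccgcccgg
Rps27l (chr9:66946053-66946082, plus strand): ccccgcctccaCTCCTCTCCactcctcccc
The annotated start lay upstream of the run in some of these (27 bases in Rpl4) and downstream in others (39 bases in Rpl22), so the windows show the letters around the start and not where transcription began in these cells. The run of Rpl41 reached the end of the sequence supplied and that of Rpl26 began at the first base searched, so both lengths are minima. Rplp0 and the paralog forms Rpl7l1 and Rps27l had runs of 7, 7 and 9 bases. Across members, the length of the run showed no clear order with the WT half-life of label described below (Spearman's rho 0.048 over 39 members, and 0.22 over 19 members with a mean CPM of at least 10, given as a description).

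The labelled cell type had its defining markers: 11 of 11 leukocyte and myeloid genes had a mean CPM of at least 1 (14.9 to 7376, the highest Lyz2), as did 4 of 4 progenitor genes. The lymphoid and stromal markers stayed below 1 (0 of 5 each), while 2 of 5 erythroid genes reached 1.34 at most and Pf4, a megakaryocyte gene, had 39.8. These are means over the libraries, so the markers could not be compared between genotypes, and their part in the results was not tested. Ybx1 itself carried label in both genotypes, at 55.2%, 61.4%, 56.8%, 50.1%, 38.9%, 15.5%, 7.29% and 5.08% in WT over the 8 time points in order, and at 72%, 51.7%, 43.4%, 48.9%, 31.1%, 20.8%, 4.67% and 3.08% in YBX1-/-. A rate is a share and does not show how much Ybx1 transcript was left, so it does not check the labels. The depth of each library is unknown, a rate of 0 can mean no reads or no converted reads, and loss of labelled transcripts and dilution by newly made ones both lower the rate and cannot be told apart.

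The intervals counted were short. All 53 lay in an annotated 3' UTR (GENCODE M21, GRCm38), with a median length of 217 bases against 1166 for the tested genes, and 18 of them (34.0%) were shorter than 100 bases against 2.23% of tested genes. In 6 members, among them Rpl14, Rpl22l1, Rps12, Rps18 and Rps19, at least 50% of the interval was coding in another transcript model. Exons of another gene lay on the opposite strand in 5 (Rpl5, Rpl22l1, Rpl31, Rpl32 and Rps25) and on the same strand in Rpl13a, and the rates of these 6 may hold reads of the neighbour. The median mean CPM was 10.6 in the kept members and 10.4 in the tested genes. The deposited column for reads that map to several places was 0 in every interval, so no such read is recorded, and how reads shared with a pseudogene or a near-identical copy were treated is not stated in the labels or headers. A rate can mix label of a member and of such a copy, and the comparisons are of label, not of abundance.

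Ribosomal protein transcripts entered the chase with label near that of other transcripts in WT and with lower label in YBX1-/-. In both genotypes they kept it longer. At 0 h in WT the median rate was 43.1% over the 50 tested members and 42.9% over all 7411 tested genes. The members stood at 28.4% after 6 h, where all genes were at 10.2%. After 12 h the medians were 13.4% and 2.17%, and after 24 h they were 3.15% and 0.848%. In YBX1-/- the members started below all genes, at 27.3% against 33.3%, and were above them at the later times. Their medians were 16.9% (6 h), 7.77% (12 h) and 1.92% (24 h), against 4.76%, 1.75% and 0.768% for all genes. The crossing came between 1 h and 3 h in both genotypes: at 1 h 22 of the 50 members in WT and 14 in YBX1-/- lay above the median of all genes, at 3 h 46 and 42.

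On the scale log2(rate in percent + 0.1), the members' median minus that of all tested genes was 0.01, -0.13 and -0.12 at 0, 0.5 and 1 h in WT. It was then 0.83, 1.47, 2.57, 2.29 and 1.77 at 3, 6, 12, 18 and 24 h. In YBX1-/- the early differences were -0.29, -0.35 and -0.16 and the later ones 0.44, 1.81, 2.09, 1.52 and 1.22. The distance was therefore widest at 12 h in both genotypes and narrowed afterwards, when the typical gene was near 1%. At 12 h the median member lay at the 96.5th percentile of all tested genes in WT and at the 91.6th in YBX1-/-.

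**Figure D1:**
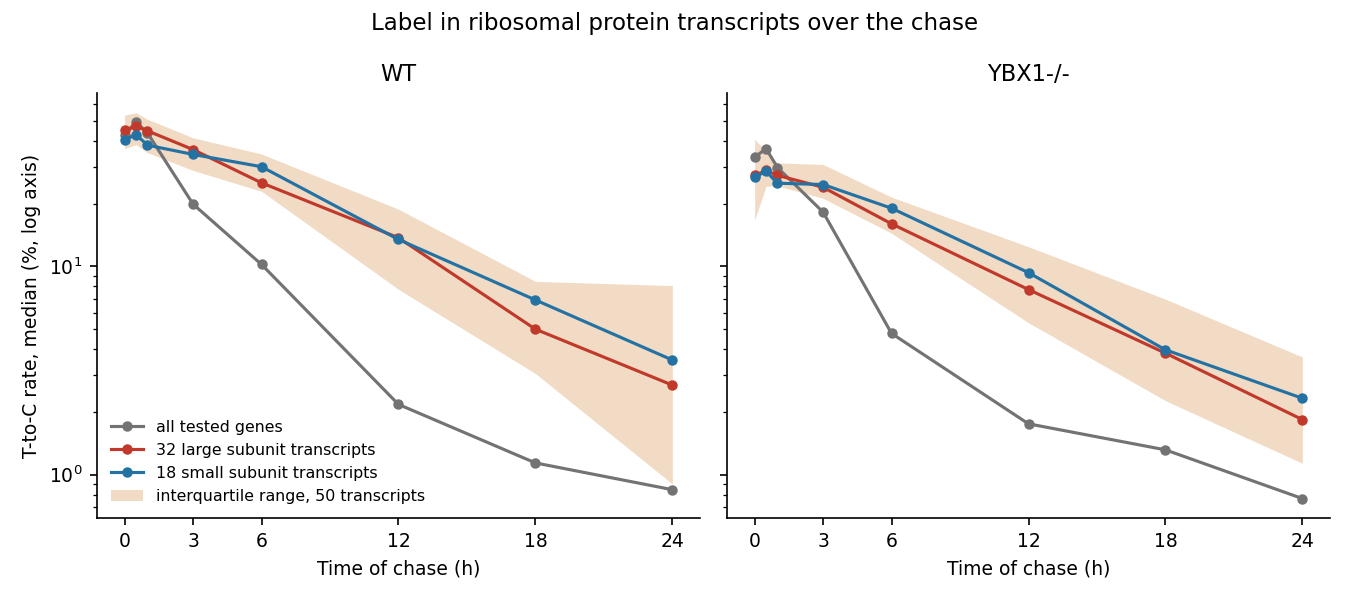
Median T-to-C rate (percent, log axis) against time of chase (h) in WT and YBX1-/-, for all 7411 tested genes, the 32 large and the 18 small subunit transcripts. The shaded band is the interquartile range of the 50 transcripts, and both subunits stay above all genes from 3 h on, at 3.55% (small) and 2.69% (large) against 0.848% at 24 h in WT.

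Relative to its own early label (the mean of 0, 0.5 and 1 h), the median member still had 82.5% at 3 h in WT, where the median gene had 45.1%. At 6 h the shares were 68.2% and 22.8%, and at 12 h 32% and 4.89%. In YBX1-/- the median member had 85.4% at 3 h, 64.8% at 6 h and 29.4% at 12 h. The median gene there had 54.7%, 14.7% and 5.38%. The members thus lost about the same share in both genotypes, while their starting rates differed.

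Loss of label was called for nearly every member, as it was for nearly every gene. In WT the rate of 49 of 50 members fell over the chase (limma slope over hours, Benjamini-Hochberg adjusted p under 0.05 over all 7411 genes), against 95.2% of all tested genes, the exception being Rps6. In YBX1-/- it fell in 45 of 50, against 91.5% of all tested genes. All 27 members with a mean CPM of at least 10 fell in both genotypes, where 98.2% and 97% of the genes of that depth did. These shares are near the background, so the fall itself does not set the members apart. The slope does differ in size: its median was -0.16 in WT and -0.17 in YBX1-/- (log2 units each hour), against -0.27 and -0.25 over all tested genes.

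An exponential with a constant floor was fitted to obtain a half-life of label, and its error is the range found when any single time point was omitted. The members' median curve gave 7.18 h (6.78 to 7.51 h) in WT and 6.93 h (6.51 to 7.26 h) in YBX1-/-. Over all tested genes the median curve gave 2.76 h (2.01 to 3.11 h) and 2.66 h (2.11 to 3.17 h). Fitted singly, 45 of 50 members in WT had a half-life above the upper quartile of all tested genes (3.63 h), and 41 of 50 in YBX1-/- (3.92 h). Only 3.09% of all tested genes in WT and 5.01% in YBX1-/- had a half-life above the median member's.

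**Figure D2:**
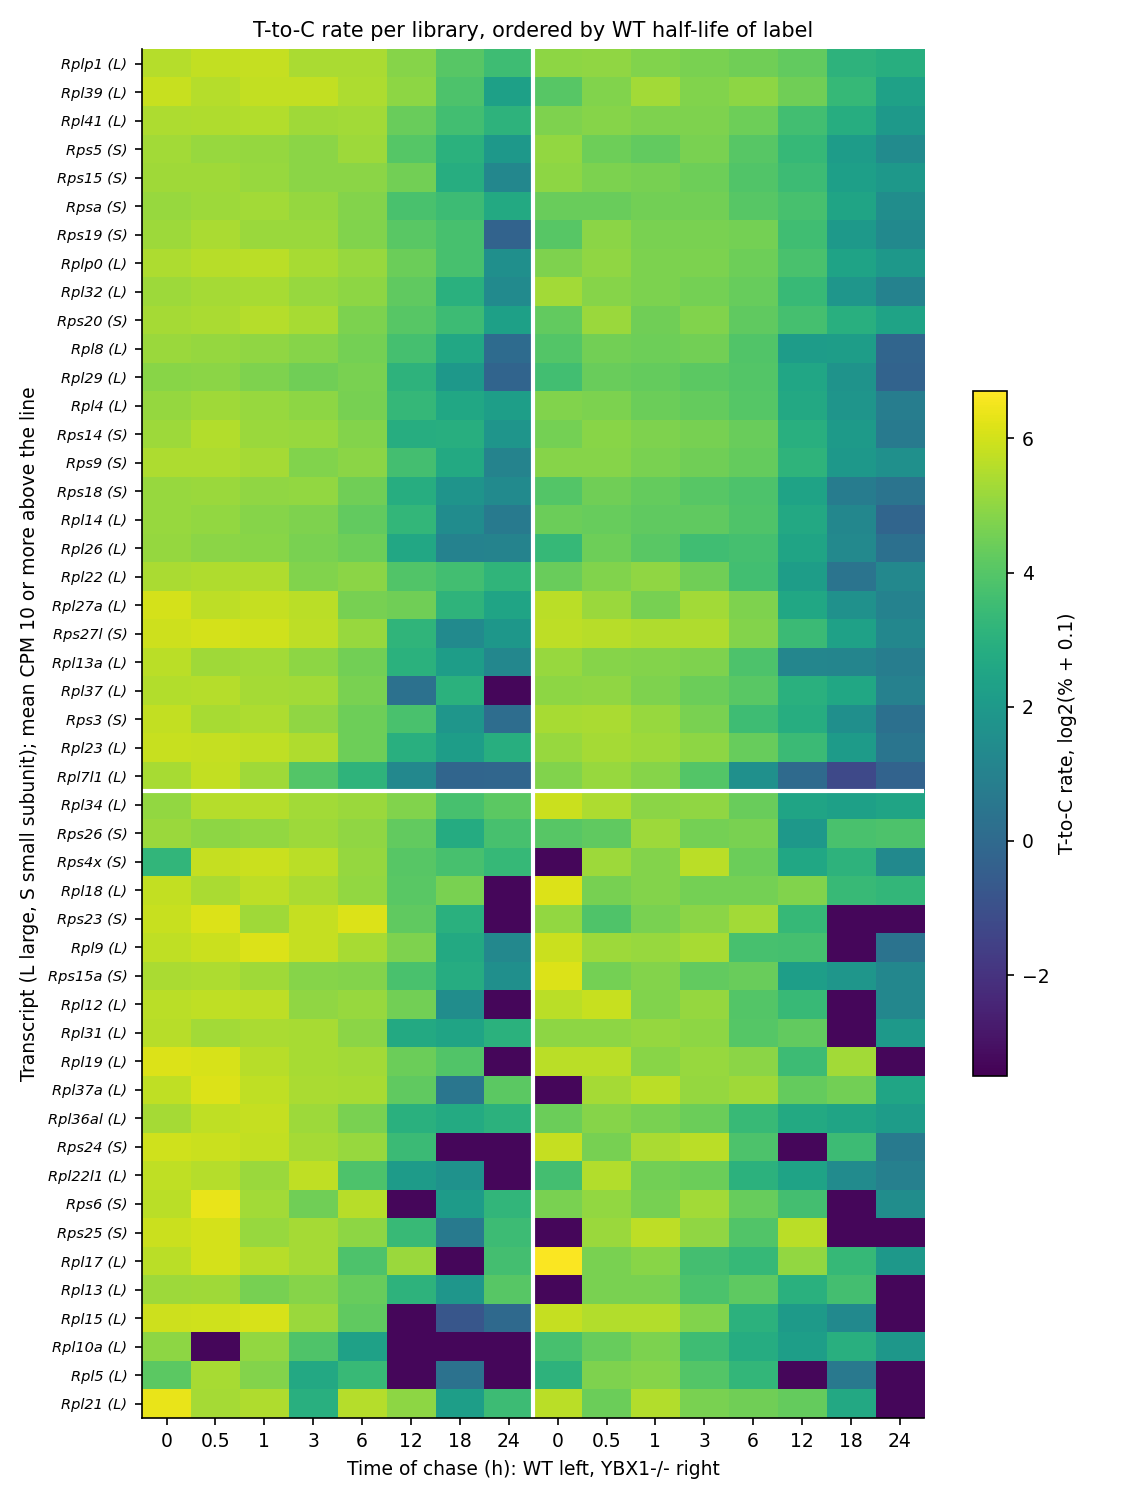
T-to-C rate of 48 of the 50 tested transcripts (rows) in each of the 16 libraries (columns), as log2(percent + 0.1), ordered by WT half-life of label within the 26 with a mean CPM of at least 10 (above the white line) and the 22 below it. The darkest cells are rates of 0, which make up 1 of 416 values above the line and 35 of 352 below it.

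The members differed among themselves. Over the 27 with a mean CPM of at least 10 the half-life ran from 2.32 h (Rpl7l1) to 12.1 h (Rplp1) in WT and from 2.63 h (Rpl7l1) to 16.2 h (Rpl39) in YBX1-/-. The order was similar in the 2 genotypes, with a Spearman's rho of 0.79 over these 27 and of 0.39 over all 50, given as a description over transcripts that share their libraries. The 23 members with a mean CPM under 10 had wider ranges, and several of their half-lives were set by 1 time point. Members with longer intervals tended to shorter half-lives in WT (rho -0.49 between length and half-life over the 27), and the part of the interval in the half-life was not tested.

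The stalk proteins of the large subunit, which recruit translation factors to the ribosome, were among the longest labelled. Rplp1 (ENSMUSG00000007892; chromosome 9, 61913284 to 61913323, minus strand) had rates of 46.9%, 54.3%, 55%, 42.8%, 42%, 29%, 16.7% and 11.5% in WT, in order of time, and 31.6%, 32%, 27.5%, 24.7%, 22.5%, 18.8%, 8.44% and 7.32% in YBX1-/-. Its half-life was 12.1 h (11.1 to 12.8 h) in WT and 11.8 h (9.83 to 13.1 h) in YBX1-/-. Every YBX1-/- value lay below the WT value of its time point. Rplp0 (ENSMUSG00000067274; chromosome 5, 115563445 to 115563727, plus strand), the base of the stalk, had 43.7%, 49%, 50.5%, 40.9%, 34.6%, 21.1%, 13.1% and 2.86% in WT and 26.5%, 32.3%, 25.9%, 25.9%, 21.6%, 13.5%, 5.28% and 3.69% in YBX1-/-. Its half-lives were 9.22 h (8.46 to 10.2 h) and 9.34 h (8.62 to 10.3 h), and the YBX1-/- value was lower at every time point but 24 h. The third stalk protein, Rplp2, was under the CPM minimum (0.107) and is not described further.

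Rpl41, the shortest protein of the ribosome and the member with the highest mean CPM (129), followed the same course. Its interval (ENSMUSG00000093674; chromosome 10, 128548114 to 128548386, minus strand) had 43.8%, 44.7%, 46.5%, 38.1%, 39.3%, 20.4%, 12.1% and 8.46% in WT and 26.2%, 28.4%, 26.2%, 26.2%, 22%, 12.2%, 7.19% and 3.83% in YBX1-/-. The label stayed near its starting rate through 6 h in WT and fell thereafter, with a half-life of 10.7 h (9.86 to 11.4 h) in WT and 10.1 h (9.46 to 10.7 h) in YBX1-/-. Rpl39, which lines the exit tunnel for the growing chain, had 56.9%, 47.2%, 54.3%, 53.5%, 44%, 31.4%, 14.2% and 4.76% in WT and 16.7%, 27%, 38.5%, 27.4%, 31.6%, 22.4%, 10% and 4.98% in YBX1-/- (ENSMUSG00000079641; chromosome X, 37082520 to 37082700, minus strand). Its YBX1-/- rate at 0 h was below those at 0.5 to 6 h, and its half-life there was 16.2 h (12.5 to 21.9 h) against 10.8 h (9.93 to 12.4 h) in WT.

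Rpl5 and Rpl11 bind 5S ribosomal RNA and, when free of ribosomes, the p53 regulator Mdm2. Rpl11 was under the CPM minimum (0.295). Rpl5 (ENSMUSG00000058558; chromosome 5, 107907997 to 107909005, plus strand) had low late rates: 17.3%, 41%, 27.6%, 6.25%, 10.2%, 0%, 1.15% and 0% in WT and 8.33%, 26.7%, 28.9%, 15.7%, 9.46%, 0%, 1.45% and 0% in YBX1-/-. Its half-life was 2.97 h (0.844 to 4.04 h) in WT, near that of all tested genes, and 5.17 h (3.1 to 6.3 h) in YBX1-/-, above their upper quartile. It was among the 3 lowest members over 12 to 24 h in both genotypes, with means of 0.385% and 0.483%, and was at 0 in 4 libraries. Fam69a exons on the opposite strand covered 94.4% of its interval, and their part in these values was not tested.

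In the small subunit, Rpsa, also known as a laminin receptor, had 34.5%, 36.7%, 39%, 33.4%, 28.1%, 13.4%, 11.2% and 6.33% in WT and 20.5%, 20.7%, 22.7%, 23.2%, 16.5%, 13%, 5.44% and 2.72% in YBX1-/- (ENSMUSG00000032518; chromosome 9, 120131495 to 120132369, plus strand). Its half-life was 9.83 h (9.11 to 10.7 h) in WT and 11 h (10.1 to 12.3 h) in YBX1-/-, and all 8 YBX1-/- values were below those of WT. Rps19, whose loss in humans causes Diamond-Blackfan anaemia, had 36.9%, 42.6%, 35.7%, 35.8%, 26.8%, 17%, 13% and 0.741% in WT and 16.7%, 30.1%, 25.1%, 24.8%, 23.7%, 11.7%, 3.86% and 2.4% in YBX1-/- (ENSMUSG00000040952; chromosome 7, 24888282 to 24888465, plus strand). It was lower in YBX1-/- up to 18 h and higher at 24 h, where the WT rate was its lowest.

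Rps3, at the entry of the mRNA channel, had a shorter half-life than most small subunit members. Its interval (ENSMUSG00000030744; chromosome 7, 99477896 to 99478951, minus strand) had 54.4%, 40.8%, 43.9%, 32%, 21.5%, 13.5%, 3.51% and 0.993% in WT and 41.5%, 42%, 35.1%, 24.6%, 11.4%, 7.2%, 2.87% and 1.11% in YBX1-/-, with half-lives of 5.19 h (4.65 to 5.77 h) and 3.31 h (2.95 to 3.94 h). Rps6, the substrate of the S6 kinases, stood just above the CPM minimum (1.11) and was the 1 member without a called fall in WT. Its rates were 50%, 81.8%, 38.5%, 22.2%, 48%, 0%, 4.17% and 9.09% in WT and 25%, 33.3%, 24.2%, 39.3%, 20%, 12.5%, 0% and 2.7% in YBX1-/- (ENSMUSG00000028495; chromosome 4, 86854660 to 86854701, minus strand), and they rose and fell between neighbouring times in WT. The WT slope was -0.19 log2 per h with a standard error of 0.095 (limma, Benjamini-Hochberg adjusted p = 0.0808). Rps13, just below the minimum, had a mean CPM of 0.822, and Rps27a, which is made as a fusion with ubiquitin, had 0.0999.

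The large and small subunits stayed close and changed order over the chase. At 0, 0.5 and 1 h the median large subunit transcript had the higher rate in all 6 libraries, by 0.01 to 0.23 on the log2 scale (44.99% against 40.4% at 0 h in WT). At 6, 18 and 24 h the small subunit had the higher median in all 6 libraries, by 0.06 to 0.46 (30.03% against 25.1% at 6 h in WT and 18.98% against 15.98% in YBX1-/-). At 3 and 12 h the sign differed between genotypes. The early order depended on the members compared: over those with a mean CPM of at least 10 the large subunit was the lower at 0 and 0.5 h in YBX1-/- (large minus small -0.09 and -0.02), and the later order then held in all 6 libraries. Over the canonical forms alone the early order held in all 6, and the later one failed at 18 h in YBX1-/- (0.09). The median curves gave half-lives of 6.41 h (6.05 to 6.66 h) for the large and 7.88 h (7.26 to 8.26 h) for the small subunit in WT, and of 6.66 h (6.24 to 6.89 h) and 7.80 h (7.39 to 8.33 h) in YBX1-/-. The ranges did not overlap in either genotype, but they show only how far 1 omitted time point moves the fit, and no test was made. The mean difference over the 16 libraries was -0.08 (SD over libraries 0.21), a mean of positive early and negative late values that does not show whether the subunits differ.

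**Figure D3:**
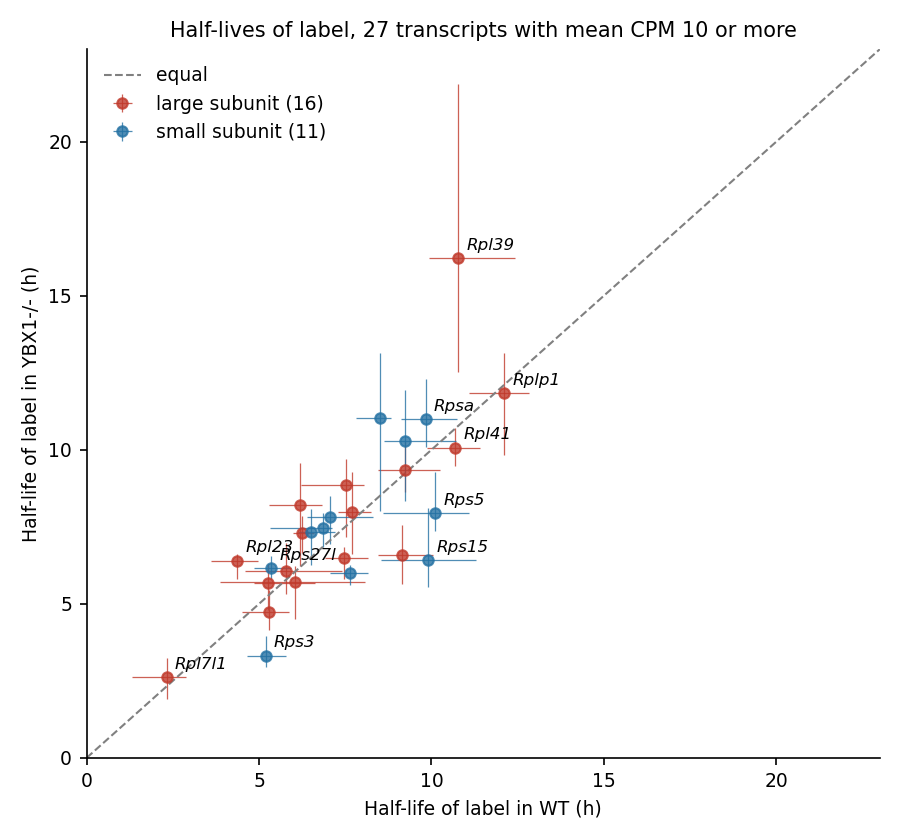
Half-life of label (h) in YBX1-/- against WT for the 27 transcripts with a mean CPM of at least 10 (16 large, 11 small subunit). Bars give the range found when any single time point was omitted, the dashed line marks equal values, and the transcripts lie between 2.32 h (Rpl7l1) and 12.1 h (Rplp1) in WT.

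For the 27 members of higher depth, the half-life was longer in YBX1-/- in 17 and shorter in 10. These counts include the YBX1-/- 0 h library and were not repeated without it. Without it, the median curve of the 50 tested members in YBX1-/- gave 6.51 h in place of 6.93 h. In 19 the ranges of the genotypes overlapped. They were apart for Rpl14, Rpl23 and Rpl39, which were longer in YBX1-/-, and for 5 members that were shorter, among them Rpl4, Rpl32, Rps3 and Rps15. Such ranges were not fitted for each of the tested genes, and the share of genes longer in YBX1-/- is not given. Whether these counts set the members apart was therefore not tested. With a straight line on the log2 scale the genotype with the longer half-life changed for Rpl23, Rps3 and Rps15. Their values were then 6.39, 4.57 and 6.49 h in WT and 5.15, 4.76 and 7.94 h in YBX1-/-. The order stayed the same for Rpl39, Rpl4 and Rpl32. For Rpl14 the straight-line values were nearly equal, at 5.27 h in WT and 5.30 h in YBX1-/-. On the log2 scale of the test, which gives the low late rates more weight, the decay rate difference was negative in 18 of the 27 with each library's median subtracted, and in 13 without. None of the 8 had a called decay rate difference in the fit across all genes, described next.

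Between genotypes, most members had the lower rate in YBX1-/- at every time point, although no single member passed the test across all genes given below. The rate was lower in YBX1-/- in 43, 47, 45, 44, 48, 37, 38 and 33 of the 50 members at 0, 0.5, 1, 3, 6, 12, 18 and 24 h. The shares of all tested genes that were lower were 75%, 85.5%, 87.5%, 59.1%, 86%, 54.6%, 41% and 49.4%. At 0 to 1 h and at 6 h a lower rate was thus the rule for members and for all genes alike, while at 3, 12 and 18 h the members' shares (88.0%, 74.0% and 76.0%) stood further above those of all genes. All genes were not matched to the members for rate. At 12 and 18 h, 16.22% to 23.75% of all genes had a rate of 0 in a library, and a rate of 0 in WT cannot be lower in YBX1-/-. Of the members, 15 were lower at all 8 time points, against 5.79% of all tested genes, a comparison with the same limit.

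The difference was steady in size. Over the 27 members with a mean CPM of at least 10, the median of YBX1-/- minus WT was -0.66, -0.56, -0.65, -0.52, -0.64, -0.63, -0.76 and -0.52 on the log2 scale from 0 to 24 h. Over the 3806 tested genes of the same depth it was -0.35, -0.44, -0.57, -0.19, -0.96, -0.32, 0.21 and -0.22. These genes were matched for depth and not for rate, with WT medians of 2.36% at 12 h and 1.17% at 18 h. The members' medians in percent were 40.5% against 27.1% at 0 h, 33.4% against 23.7% at 3 h, 26.8% against 16.9% at 6 h and 7.12% against 3.87% at 18 h. Of these 27, 13 were lower in YBX1-/- at all 8 time points, against 9.33% of genes of that depth, 11 at 7 and 3 (Rpl37, Rps3 and Rps27l) at 6. Among the 13 was Rpl7l1, whose 3 h rates were equal to 3 digits.

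**Figure D4:**
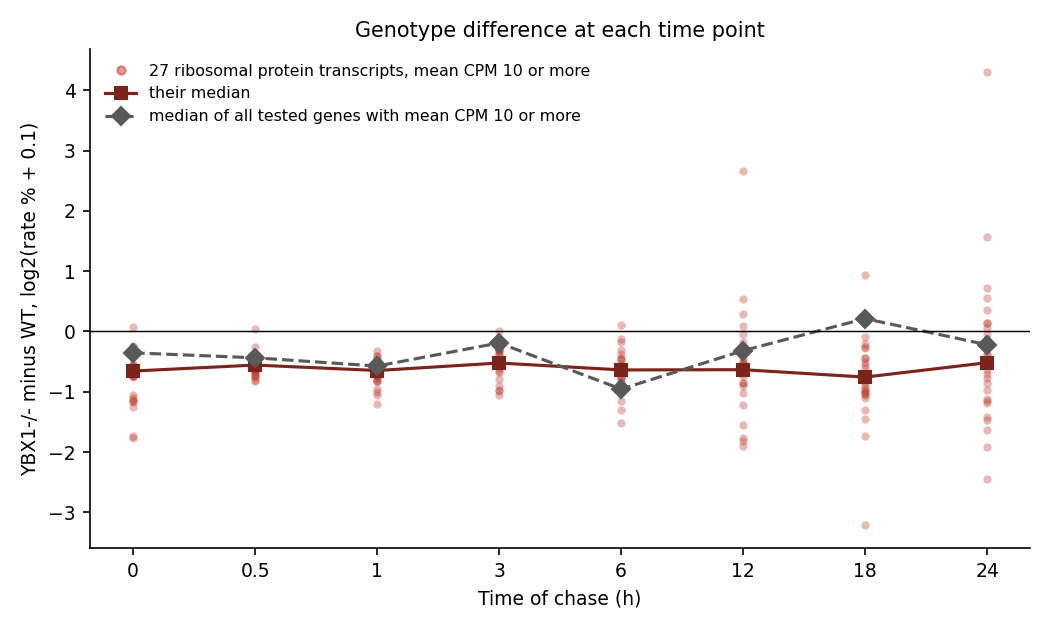
Difference in T-to-C rate, YBX1-/- minus WT on log2(percent + 0.1), at each time of chase (h) for the 27 transcripts with a mean CPM of at least 10 (points), their median (squares) and the median of 3806 genes of that depth (diamonds). The squares stay between -0.76 and -0.52, and the diamonds run from -0.96 at 6 h to 0.21 at 18 h.

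In the fit across all genes, with each library's median subtracted, no member had a called labelling level difference, and none of the 7411 genes had one (limma with Benjamini-Hochberg adjustment, smallest adjusted p = 0.779). At an unadjusted p under 0.05, 1 member was higher and 5 were lower in YBX1-/-, where 3.41% and 2.19% of all genes were. The level difference was negative in 40 of 50 members and in 49.3% of all tested genes, with medians of -0.31 and 0.01. It was negative in 25 of the 27 members of higher depth and in 51.1% of genes of that depth. Without subtracting the library median, the median moved to -0.65 for the members and to -0.34 for all genes, and 44 of 50 members and 73.0% of genes were negative. With it subtracted but only the first 6 or 12 h fitted, the members' median was smaller, at -0.08 and -0.15. The difference was then negative in 37 and 39 of the 50 members, and the share of all genes in these fits is not given. The median member's standard error was 0.28, so a single member's difference of the median size is about the size of its own error.

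The 3 members with the smallest p for a lower level were Rpl36al, Rpl22 and Rpl41. Their differences were -0.46 (SE 0.14), -1.0 (SE 0.37) and -0.43 (SE 0.17), each with a limma adjusted p of 0.779 after Benjamini-Hochberg adjustment. For Rpl41 the values above show the lower rate at 8 of 8 time points. Toward a higher level the smallest p belonged to Rpl10a (3.24, SE 1.11), Rpl37 (0.76, SE 0.58) and Rps27l (0.20, SE 0.18), with limma adjusted p of 0.779, 0.793 and 0.830.

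The value of Rpl10a, a protein of the L1 stalk, rested on rates of 0. Its interval (ENSMUSG00000037805; chromosome 17, 28329064 to 28329280, plus strand) had 31.2%, 0%, 33.3%, 14.7%, 5%, 0%, 0% and 0% in WT and 13%, 19.8%, 25.9%, 11.4%, 6.93%, 4.55%, 7.58% and 3.6% in YBX1-/-. WT was at 0 in 4 libraries and YBX1-/- in none, so the size of the difference depends on the value added before the logarithm. It also depended on the interval: averaged over the intervals of Rpl10a with a mean CPM of at least 1, the level difference was 0.57. In 1 further interval (chromosome 17, 28329374 to 28329522) the rates at 0, 0.5, 1 and 3 h were 43.6%, 75%, 66.7% and 44.4% in WT and 18.2%, 22.2%, 13.7% and 0% in YBX1-/-. WT was thus the higher at each of these times. In the interval used WT was also the higher at 0, 1 and 3 h, and the lower at 0.5 h, where its rate was 0. Rpl37 (ENSMUSG00000041841; chromosome 15, 5118637 to 5119140, plus strand) had 46.2%, 47.1%, 40.4%, 39.2%, 25%, 1.14%, 7.97% and 0% in WT and 31.2%, 32.5%, 26.1%, 20.9%, 17%, 7.77%, 5.83% and 1.88% in YBX1-/-. It was lower in YBX1-/- at every time but 12 and 24 h, the times of the 2 lowest WT rates.

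No member had a called decay rate difference (limma with Benjamini-Hochberg adjustment, smallest adjusted p = 0.173), where 8 of all tested genes (0.108%) had one, 3 (0.0405%) with slower and 5 (0.0675%) with faster loss in YBX1-/-. At an unadjusted p under 0.05, 2 members were slower and 7 faster in YBX1-/-, against 7.5% and 5.03% of all genes. The median difference over members was -0.02 log2 per h, with 31 of 50 negative (62%) against 47.5% of all tested genes. Its sign was not stable. Without subtracting the library median it was 0.0025, with 23 of 50 members (46%) and 34.3% of all genes negative, and with only the first 6 or 12 h it was 0.11 and 0.02. With the filter on rates above 0 dropped, 44 of 53 were negative. With the 0 to 12 h libraries 1 member was called, Rps6 (0.61 log2 per h, SE 0.12, limma with Benjamini-Hochberg adjusted p = 0.0494). Its mean CPM was 1.11 and its WT rate at 12 h was 0. Without the 18 h time point 2 were called, Rpl37 (0.21) and Rpl18 (0.27). The share of all tested genes called in these 2 fits is not given here.

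Rpl34 and Rpl22 were among the 3 members with the smallest p toward faster loss in YBX1-/-. Rpl34 (ENSMUSG00000062006; chromosome 3, 130726831 to 130726874, minus strand) had 33.3%, 47.5%, 47%, 38.5%, 36.1%, 27%, 13.2% and 17.5% in WT and 58.3%, 43.4%, 30.4%, 32%, 20.3%, 5.36%, 4.76% and 5.42% in YBX1-/-, a decay rate difference of -0.10 (SE 0.03). It held the highest mean of all members over 12 to 24 h in WT (19.2%) and stood at 5.36%, 4.76% and 5.42% in YBX1-/- at the same times. Rpl22, whose rates are given with its paralog below, had a difference of -0.10 (SE 0.03). Toward slower loss the smallest p belonged to Rpl22l1 (0.15, SE 0.05), Rpl37 (0.14, SE 0.05) and Rpl18 (0.17, SE 0.08). Each of these 3 had a WT rate of 0 at 24 h, and without that time point their differences were 0.035, 0.054 and -0.038.

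Several ribosomal proteins have paralogs that cells can exchange for the main form. In the pairs Rpl7 and Rpl7l1, Rpl36a and Rpl36al, and Rps27 and Rps27l only the paralog form was above the CPM minimum, the main forms having a mean CPM of 0.0766, 0.151 and 0.224. Each CPM is that of a single interval, and how reads shared with copies elsewhere in the genome were treated is not stated. These values therefore do not show which form the cells used. Rpl22 and Rpl22l1 were both kept, and could be set beside each other. Rpl22 (ENSMUSG00000028936; chromosome 4, 152332425 to 152334070, plus strand) had 42.8%, 45%, 44.9%, 27.4%, 30.2%, 15.2%, 12.2% and 8.93% in WT and 20.5%, 27%, 31.6%, 22.2%, 12.2%, 4.38%, 1.23% and 2.29% in YBX1-/-. Rpl22l1 (ENSMUSG00000039221; chromosome 3, 28807187 to 28807422, plus strand) had 52.5%, 47.7%, 36.1%, 52.4%, 14.3%, 4.12%, 3.14% and 0% in WT and 12.5%, 46.4%, 22.9%, 21.2%, 8.22%, 5.17%, 2.6% and 1.8% in YBX1-/-. From 6 h on Rpl22 was the higher of the 2 in every WT library, and in YBX1-/- the 2 were close, with Rpl22l1 higher at 12 and 18 h.

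Rps27l, a paralog of Rps27 induced by p53, had the second highest mean CPM of the members (115) and a high early label. Its rates were 60.6%, 66.7%, 63.1%, 50.9%, 34.4%, 8.88%, 2.52% and 3.65% in WT and 51.4%, 48.5%, 44.9%, 44.4%, 27.8%, 10.9%, 4.94% and 2.21% in YBX1-/- (ENSMUSG00000036781; chromosome 9, 66949342 to 66949514, plus strand). It was lower in YBX1-/- up to 6 h and at 24 h, and higher at 12 and 18 h, with half-lives of 5.36 h (4.84 to 5.92 h) in WT and 6.16 h (5.81 to 6.56 h) in YBX1-/-. Its level difference of 0.20 turned to -0.14 without subtracting the library median. Rpl7l1, a nucleolar relative of Rpl7, had 41.1%, 54.5%, 38.1%, 15.6%, 8.77%, 2.3%, 0.777% and 0.816% in WT and 27.5%, 34.8%, 28.9%, 15.6%, 2.99%, 0.931%, 0.322% and 0.738% in YBX1-/- (ENSMUSG00000063888; chromosome 17, 46773907 to 46775736, minus strand). With half-lives of 2.32 h (1.32 to 2.87 h) and 2.63 h (1.9 to 3.23 h) it was the shortest of the 27 members of higher depth in both genotypes and lay at the level of all tested genes.

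Rpl36al had 40.2%, 53.3%, 56%, 36.8%, 25.3%, 7.69%, 6.5% and 8.11% in WT and 21.4%, 28.8%, 25.2%, 21.3%, 10.2%, 6.33%, 5.33% and 4.35% in YBX1-/- (ENSMUSG00000049751; chromosome 12, 69182731 to 69182815, minus strand). The YBX1-/- rate was lower at 8 of 8 time points, and the half-lives were 5.43 h (3.69 to 6.29 h) and 4.93 h (3.37 to 6.89 h). Of the pair Rpl39 and Rpl39l, the paralog form Rpl39l (ENSMUSG00000039209; chromosome 16, 10174466 to 10174911, plus strand) was too often at 0 to be tested. It had 47.2%, 62.7%, 49.1%, 45.8%, 25.7%, 5%, 0% and 0% in WT and a rate of 0 in all 8 YBX1-/- libraries, at a mean CPM of 1.31. Whether those 8 libraries held no reads or only unconverted reads was not tested. Rpl3l, a form of Rpl3 known from striated muscle, was kept at a mean CPM of 1.60 and was above 0 in 9 libraries, while Rpl3 itself was under the minimum (0.475). Rpl10l, a form of Rpl10 known from testis, had a mean CPM of 0, and Rpl10 had 0.298. As for the pairs above, the CPM of a single interval does not show which form the cells used.

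**Figure D5:**
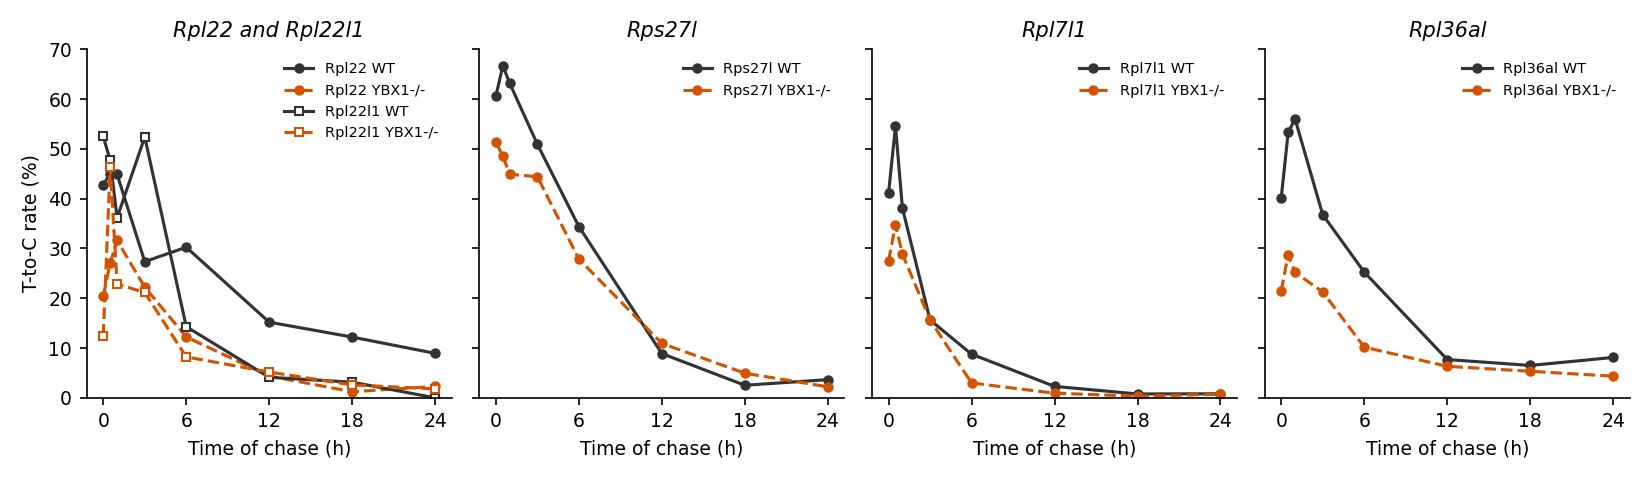
T-to-C rate (percent) against time of chase (h) in WT (solid) and YBX1-/- (dashed) for Rpl22 with Rpl22l1 (open squares) and for the paralog forms Rps27l, Rpl7l1 and Rpl36al. Rpl7l1 falls from 38.1% at 1 h to 15.6% at 3 h in WT, and Rpl36al is lower in YBX1-/- at all 8 time points.

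Single values of members with a low CPM were scattered. At 0 h in YBX1-/- Rpl17 stood at 100%, Rps15a and Rpl18 at 71.4%, and Rpl13, Rpl37a, Rps25 and Rps4x at 0, and the spread of the 50 members in that library was 2.37 (SD, log2 scale) against 0.50 at 0 h in WT. Over the 27 members of higher depth the spread in that library was 0.58. Without that library the median level difference of the members was -0.25, and the half-life of their median curve in YBX1-/- was 6.51 h. Members at 0 in at least 3 libraries were Rpl39l (10), Rpl3l (7), Rps12 (5), Rpl5 (4), Rpl10a (4), Rps23, Rps24 and Rps25 (3 each).

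Genes with related roles gave the frame for these half-lives. Of the ribosomal proteins that the naming pattern leaves out, Rack1 had the highest mean CPM (31.8), with WT rates of 48.4% (0 h), 40.9% (6 h) and 9.74% (24 h) and YBX1-/- rates of 32.7%, 27.8% and 7.99%. A list of genes whose mRNAs are known to carry a TOP motif (TOP genes, 19 tested) held translation factors and others, among them Npm1. Their median-curve half-life was 4.56 h (3.82 to 4.96 h) in WT and 4.89 h (4.38 to 5.44 h) in YBX1-/-, between the ribosomal proteins and the typical gene. Eef1a1, which brings aminoacyl-tRNA to the ribosome, had 57.4%, 39.3% and 5.56% at 0, 6 and 24 h in WT. Genes of ribosome assembly and the nucleolus (38 tested) had 2.59 h and 2.77 h, and mitochondrial ribosomal proteins (70 tested) 3.00 h and 2.87 h, near all tested genes. Runs of 10 or more C and T bases were found in 46.2% of the TOP genes with a sequence, 14.3% of the assembly genes and 18.0% of the mitochondrial ribosomal proteins. The level difference was negative in 16 of 19 TOP genes, 16 of 38 assembly genes and 30 of 70 mitochondrial ribosomal proteins, with medians of -0.13, 0.10 and 0.05. None of the genes on these 3 lists had a called level or decay rate difference (limma with Benjamini-Hochberg adjustment). At an unadjusted p under 0.05 there were 0, 3 and 1 for the level and 2, 6 and 11 for the decay rate.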

How the data were processed

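SLAM-seq libraries of mouse leukemia cells were analysed from 1 table of 86993 intervals. Per the file headers, the authors deposited for each interval a T-to-C rate per library as a fraction from 0 to 1, and, as means over the libraries, CPM and a coverage signal on Ts. The submitters' processing notes name CASAVA, HISAT2 2.1.0 and the human build GRCh38, although samples and identifiers are mouse. The conversion caller and the denominator of the rate (reads or covered Ts) are not given in the sources used here. Of the 21177 gene identifiers, 21148 were matched to a symbol. Intervals lay in UTRs of GENCODE M21 (GRCm38), which is the build of all coordinates (1-based). The table gives no depth for single libraries, so a rate has no confidence interval, and no unlabelled library was among the samples.

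Fractions were multiplied to percent and a log2(rate + 0.1) was taken, which understates differences near 0. Genes with a rate above 0 in at least 12 libraries (7411) entered trended limma fits (version 3.58.1, R 4.3.3). Loss of label was the slope over hours in 1 genotype. The level difference was the genotype term and the decay rate difference the interaction of genotype and hours, YBX1-/- minus WT, with the time point as a factor and each library's median subtracted. Benjamini-Hochberg adjustment ran over all tested genes with a threshold of 0.05. Half-lives were fitted by least squares (scipy 1.17.1). The fits were tested on simulated data. The simulated genotype differences were larger than the members' median differences, so they do not show whether differences of that size would be called. Members and lists were chosen with earlier results of these data known, so their counts and medians are descriptions. Transcripts named were paralog pairs, the stalk, Rpsa and a few well-studied proteins, the smallest p in each direction, the highest and lowest rates at 0 h and over 12 to 24 h, those next to the CPM minimum, and those often at 0. Alternatives changed the added value, filter, interval, centring, time window, members and half-life model. Some items are not reported here.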

Additional observations from a re-analysis of the deposited data

How the results depend on the processing

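The limits are 1 library for each genotype and time point, unknown depth and an unknown background of T-to-C changes. No paired analysis was possible by replicate number because the labels carry none. The genotype fits paired the libraries by time point instead, and without that term there were still 0 called members. The shares of all tested genes called in the fits below are not given, so their counts of called members have no background. With 0 to 6 h only, calls of label loss fell to 14 members in WT and 15 in YBX1-/-. In that window 8 members had a negative decay rate difference (median 0.11), and half-lives rose to 9.37 h and 8.97 h. The WT label relative to all genes was 1.47, and the decay rate difference of Rpl22 (0.038) and the level of Rpl37 (-0.13) changed sign. With 0 to 12 h, 1 decay rate difference was called, 20 were negative (median 0.0197), and half-lives were 7.84 h and 7.36 h. A straight line gave 6.25 h and 6.16 h. Members at a mean CPM of at least 10 gave 27 and 27 calls of label loss, 24 negative level and 17 negative decay rate differences, an early relative label of -0.17 in WT and 71.6% retained at 6 h in YBX1-/-. Members above 0 in all libraries gave 31 calls in WT, 20 negative decay rate differences when all genes were filtered so, an early relative label of -0.21, 7.66 h in WT and 70.9% retained. Dropping the filter, with many rates of 0 among all genes, moved the relative label to 0.055 and -0.12 at 0 to 1 h and to 4.16 and 4.0 at 6 to 24 h in WT and YBX1-/-, and the median decay rate difference to -0.063. Without centring the median level difference was -0.65, the median decay rate difference 0.0025 with 23 negative, and that of Rps27l was -0.14. Leaving out each time point in turn gave 0 to 2 decay rate differences, 60.4% to 66.7% retained at 6 h in YBX1-/-, a decay rate difference of Rpl18 from -0.038 to 0.27, of Rpl37 from 0.05 to 0.21 and of Rpl22l1 from 0.035 to 0.20. Without the 18 h time point Rpl37 and Rpl18 were called. The cause of these changes was not tested beyond the constructions named. No alternative run gave a called level difference among the members.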

Other observations

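Some members had further intervals with a mean CPM of at least 1 that did not overlap the one used, and the rates of such intervals were not always alike. In Rpsa the further interval (169 bases, mean CPM 15.1) started at 49.7% in WT, stood at 35.2% after 6 h and ended at 3.82%, with 29.6%, 21.2% and 2.84% in YBX1-/-. In Rps27l (69 bases, mean CPM 4.08) it had 54.3%, 32.1% and 0% in WT and 50%, 40% and 1.11% in YBX1-/-. Both fell over the chase as the interval used did, and in Rpsa the further interval started higher, the one used having 34.5% in WT and 20.5% in YBX1-/- at 0 h. In Rps19 the further interval (55 bases, mean CPM 8.49) had 6.72%, 4.76%, 8%, 6.73%, 4.58%, 2.88%, 1.77% and 0% from 0 to 24 h in WT, where the interval used began at 36.9%. In YBX1-/- it had 0%, 3.81%, 2.78%, 1.27%, 4.27%, 1.75%, 1.70% and 0.481%. Rpl13a had 4 further intervals, which began at 27.8%, 38.1%, 12.5% and 36.8% at 0 h in WT against 50% in the one used. In Rps3 a further interval of 3 bases (mean CPM 10.8) began at 33.2% against 54.4%. In Rpl10a the 2 further intervals began at 57.4% and 43.6% against 31.2%. The starting rates of several members thus differed between intervals, and the cause was not tested.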
